A study of Oryza sativa with 18 samples.

Results

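Sucrose, fructose and raffinose metabolism was followed through 4 genes in germinating rice (Oryza sativa). They are LOC_Os03g28330, the sucrose synthase gene SUS1, LOC_Os01g22900, a neutral invertase gene, LOC_Os08g02120, the fructokinase gene FRK2, and LOC_Os01g07530, a raffinose synthase family gene listed as RFS in RefSeq. The 4 genes were chosen by name from tables that hold only genes the authors had called different between genotypes, out of 3149 genes listed at any time. The values that chose them were therefore the log2 fold changes and false discovery rates (FDR) of the contrasts described here. Their differences are given as a description, without an independent test. Refit p-values given below reuse the counts that chose the genes and show only how a call depends on the method.

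RNA sequencing covered 18 samples: 3 of the wild type, titled 9522, and 3 of the csa mutant at each of 3 h, 6 h and 12 h of imbibition, the water uptake that starts germination. CSA is a MYB-type transcription factor that in rice is known for directing sugar to the developing anther; the labels do not state the kind of csa allele. All seeds were dehulled, surface-sterilised and kept in the same medium under a light and dark cycle, and RNA of 5 seeds was pooled per extraction. The tissue is labelled embryo while the extraction protocol speaks of seeds. The labels do not say whether replicates came from separate plants, so the spread behind the p-values may be technical. The title of wild type replicate 3 at 12 h names the wild type and its genotype field the mutant. None of the 4 genes was listed at 12 h, so no value given for them uses this library. Whether their absence at 12 h, or the number of calls at that time, depends on this library was not tested.

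Sucrose reaching a plant cell is split by 2 kinds of enzyme. Sucrose synthase cleaves it reversibly with UDP into UDP-glucose and fructose, and invertase hydrolyses it to glucose and fructose, in the cytosol or in organelles for the neutral forms and in the apoplast for the cell wall forms. Fructokinase phosphorylates the fructose and so passes it to glycolysis and starch synthesis. Raffinose is built on sucrose: galactinol synthase makes galactinol from UDP-galactose and myo-inositol, and raffinose synthase moves its galactose onto sucrose. Raffinose family sugars collect in maturing, drying seeds and are broken down by alpha-galactosidase during germination.

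The 4 genes were listed at 1 time each, the neutral invertase gene at 3 h and the other 3 genes at 6 h. The neutral invertase and raffinose synthase genes were higher in csa, and SUS1 and FRK2 were lower. A gene missing from a table may have failed either the fold or the FDR threshold, so its counts at that time were not analysed here and no change over time can be given for any of the 4. Of the 21397 genes tested at 3 h, 3.49% were called higher and 1.42% lower in csa. At 6 h, 6.03% of 23117 genes were called higher and 4.30% lower, and at 12 h 0.212% and 0.188% of about 21242. Genotypes did not overlap in 96.3% of the genes listed at 3 h and 97.3% of those at 6 h. These shares are printed for scale only, because the members were picked from the same calls.

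**Figure D1:**
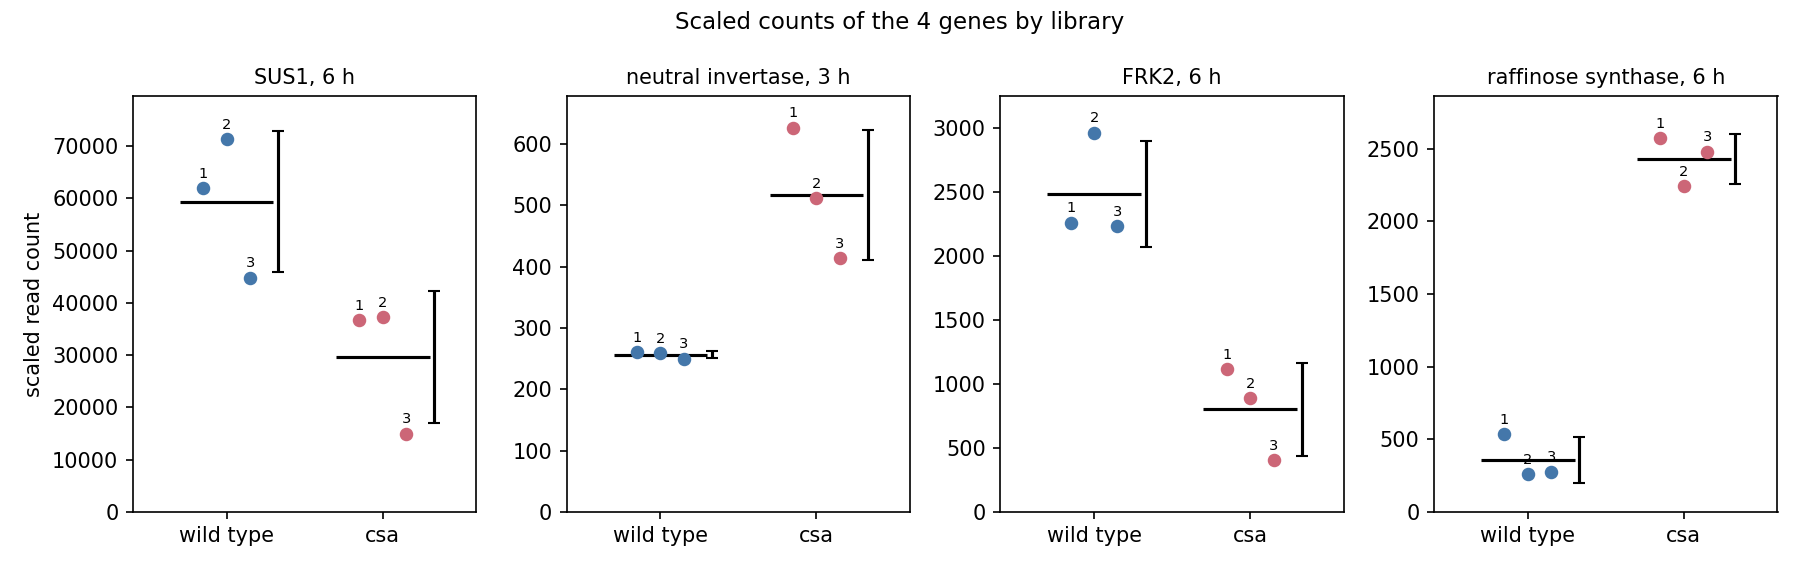
Scaled read counts (linear axis from 0) of SUS1, the neutral invertase gene, FRK2 and the raffinose synthase gene in each library at the time each was listed. Points are libraries with their replicate number, horizontal lines are group means and bars are ± 1 SD (n = 3). No wild type library overlaps a csa library in any panel, and csa replicate 3 is the lowest for SUS1 and FRK2.

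SUS1 had fewer reads in csa embryos at 6 h. The csa libraries held 35364, 35554 and 15528 raw counts and the wild type libraries 61378, 68886 and 49088. The groups did not overlap, but the highest csa library came within 1.20 times of the lowest wild type library on the scaled counts, and csa replicate 3 stood well below the other csa libraries. Scaled counts, which are raw counts divided by a library factor, averaged 29639 ± 12696 in csa embryos and 59354 ± 13450 in wild type embryos (SD, n = 3). The log2 fold change, csa over wild type throughout, was -1.002 ± 0.404 (SE).

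The SUS1 call sat at the edge of the threshold. In the authors' deposited table its log2 fold change is -1.0007 and its FDR 0.0165. By size of fold change only 4 of the 2388 genes listed at 6 h lay closer to the limit of 1, and by FDR SUS1 ranked 2017. Genes just outside the limit were not analysed here. Without csa replicate 3 the log2 fold change was -0.68, and without wild type replicate 2 it was -0.85. An edgeR quasi-likelihood refit of the listed genes gave SUS1 p = 0.0273, above the largest p of the authors' list (0.0117), while a DESeq2 refit gave p = 0.00756, below it.

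The neutral invertase gene had more reads in csa embryos at 3 h. The csa libraries held 620, 485 and 407 raw counts and those of wild type 264, 267 and 258. Wild type values were nearly equal, with a coefficient of variation of 2.26%, while csa values spread by 20.6%. Read sampling alone usually gives a wider spread than 2.26% at such counts, so the wild type value may understate the true spread. The lowest csa library still lay 1.58 times above the highest wild type library on the scaled counts. Means of scaled counts were 517 ± 107 in csa and 256 ± 5.81 in wild type (SD, n = 3), and the log2 fold change was 1.01 ± 0.17 (SE). The authors' deposited table gives an FDR of 1.30e-05.

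This gene, too, was listed close to the fold limit, with 32 of the 1050 genes of the 3 h table nearer to it. Leaving out csa replicate 1, the highest library, gave a log2 fold change of 0.85, and leaving out wild type replicate 3 gave 0.99. The edgeR refit of the listed genes reuses the counts that chose this gene, so it is no independent test of the difference. It shows only how the call depends on the libraries used and on their number. The call was kept with all 6 libraries, but not without csa replicate 1 or without any 1 wild type library. In those cases the refit p lay above the largest p of the authors' list, which was set with 3 libraries per group. The edgeR refit p was nearly the same whichever wild type library was left out: 0.011, 0.0105 and 0.0101 for replicates 1, 2 and 3. The part of having fewer libraries in these losses was not tested. Over all listed genes at 3 h, csa replicate 2 was the library least like its group: its median distance from the other 2 was 0.55 log2 units, and that of the remaining 5 libraries 0.25 to 0.45. In that library the neutral invertase count was 98.3% of the mean of the other csa libraries, and without it the log2 fold change was 1.02.

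FRK2 had fewer reads in csa embryos at 6 h, by a wider margin than SUS1. In csa the raw counts were 1075, 849 and 417, and in wild type 2241, 2859 and 2444. The groups were well apart, with the lowest wild type library 2.00 times above the highest csa library on the scaled counts, and csa replicate 3 was again the lowest. Mean scaled counts were 802 ± 364 and 2484 ± 414 (SD, n = 3), which gives a log2 fold change of -1.63 ± 0.40 (SE). In the authors' deposited table the FDR is 2.20e-05. The log2 fold change was -1.31 without csa replicate 3 and stayed between -1.94 and -1.31 with any 1 library left out.

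SUS1 and FRK2 act on the same route, and their counts can be set against each other within a library, where scaling cancels. There were 3.04, 2.39 and 2.69 FRK2 reads per 100 SUS1 reads in the csa libraries, against 3.65, 4.15 and 4.98 in the wild type libraries. FRK2 was thus lower relative to SUS1 in every csa library, including replicate 3, in which both genes stood at 40.1% (FRK2) and 40.5% (SUS1) of the mean of the other csa libraries. This is a description of 2 genes chosen from the same contrast and was not tested.

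The raffinose synthase gene showed the widest difference of the 4. At 6 h the csa libraries held 2483, 2137 and 2570 raw counts and the wild type libraries 532, 250 and 302. The csa libraries were close together, and the lowest lay 4.18 times above the highest wild type library, replicate 1, on the scaled counts. Means of scaled counts were 2431 ± 172 in csa and 357 ± 156 in wild type (SD, n = 3), or 6.81 times the wild type level, with a log2 fold change of 2.77 ± 0.37 (SE). The authors' deposited table gives an FDR of 1.43e-19, the ninth smallest at that time. With single libraries left out the log2 fold change ran from 2.58 to 3.19, the highest without wild type replicate 1.

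**Figure D2:**
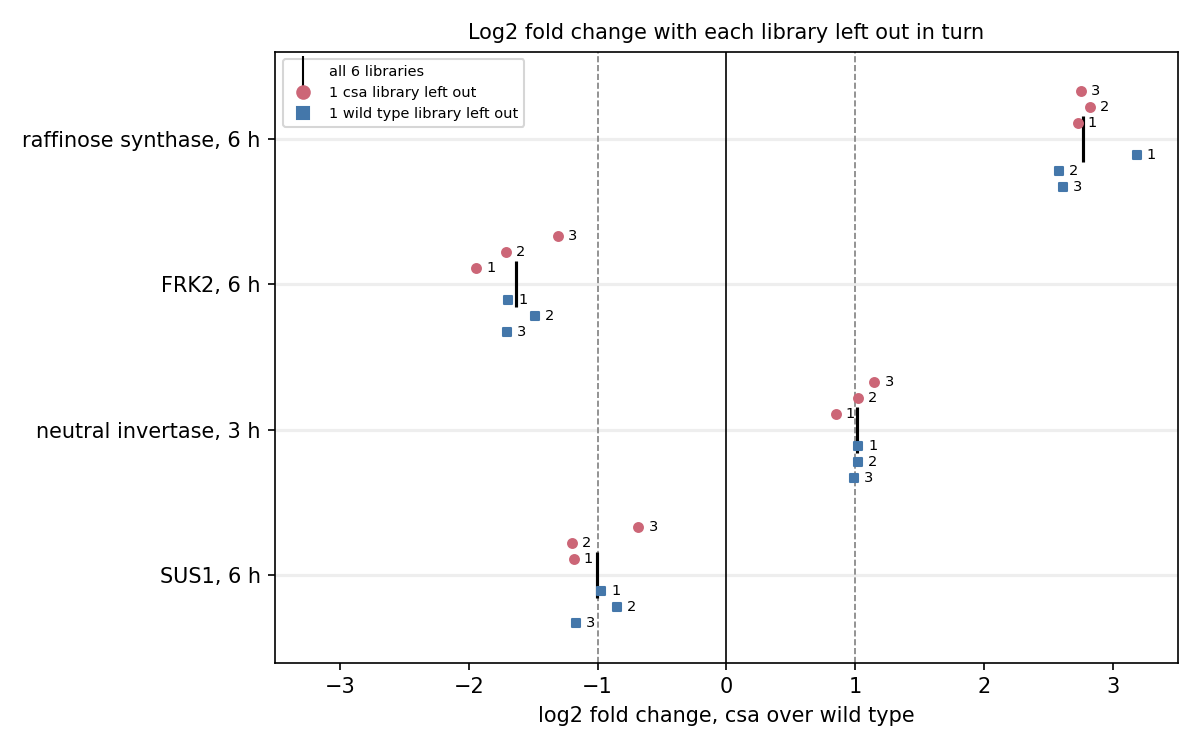
Log2 fold change (csa over wild type) of the 4 genes with all 6 libraries of a time (vertical ticks) and with 1 csa (circles) or 1 wild type (squares) library left out, numbered by replicate. Dashed lines mark the fold limit of 1 in either direction. SUS1 moves to -0.68 without csa replicate 3 and the neutral invertase gene to 0.85 without csa replicate 1, whereas FRK2 and the raffinose synthase gene stay beyond the limit.

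Libraries at 6 h differed in how far they lay along the csa contrast. Csa replicate 3 was the least like its group, with a median distance of 0.49 log2 units where the remaining 5 libraries had 0.31 to 0.41. It was the lowest csa library for 64.8% of the 993 genes listed as lower and the highest for 59.6% of the 1395 listed as higher. CSA itself had 92, 81 and 201 reads in the mutant at 6 h and 310, 305 and 380 in wild type. The same library, replicate 3, thus held the most CSA reads of the mutants. Among wild type libraries, replicate 1 lay 0.43 log2 units above the others at the median of the genes listed as higher, and the raffinose synthase gene stood there at 201% of the mean of the other wild type libraries. The part of these library differences in the results was not tested.

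The listed seed protein markers were all higher in csa at 3 h and 6 h. Among all listed genes, 746 of 1050 were higher at 3 h and 1395 of 2388 at 6 h. Markers that were not called were not analysed here. At 6 h all 6 listed embryo markers (oleosin, globulin 1 and embryonic abundant protein genes, found by annotation terms) were higher in csa, with summed scaled counts of 74479 to 85390 against 26813 to 39786 in wild type. The 2 listed endosperm markers, both glutelin family genes, were higher as well, at 319 to 519 against 166 to 206. At 3 h all 7 listed embryo markers and all 4 listed endosperm markers, glutelins and a prolamin, were higher, at 97902 to 187284 against 39339 to 63186 and at 5129 to 6652 against 2107 to 2598. Each of these markers had reads, as any called gene must. In bulk samples fewer cells of a type and less RNA per cell cannot be told apart, and the part of tissue makeup in the sugar gene values was not tested.

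The other genes of these routes were found by annotation terms in the same tables. At 3 h, 3 genes of sucrose cleavage, sucrose synthesis, hexose phosphorylation and the raffinose family were called, all 3 higher in csa, beside 746 higher and 304 lower among all calls. At 6 h there were 14, with 7 higher and 7 lower, beside 1395 higher and 993 lower among all calls. The median log2 fold change was 0.03, beside 1.11 over all listed genes. Every listed gene reached a log2 fold change of 1 in size, so these medians reflect the split by direction and not small changes. At 12 h none was listed, and no sucrose synthesis gene was listed at any time. Uncalled relatives were not analysed here, which leaves the share of each family unknown.

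Among the enzymes that split sucrose, 6 genes were listed at 6 h, 3 higher and 3 lower. The lower genes were both sucrose synthases and a cell wall invertase. SUS2 (LOC_Os06g09450), the other listed sucrose synthase gene, had 14116, 12031 and 4559 raw counts in csa against 21719, 27751 and 19021 in wild type, a log2 fold change of -1.10 ± 0.48 (SE). Its pattern over the libraries was like that of SUS1, with csa replicate 3 lowest and wild type replicate 2 highest. The tables annotate SUS1 and SUS2 alike as sucrose synthase 2, and the handling of reads that match both copies is not stated, so their split is uncertain. The cell wall invertase gene CIN7 (LOC_Os09g08072) had raw counts of 77, 60 and 11 in csa against 129, 196 and 119 in wild type, a log2 fold change of -1.53 ± 0.65 (SE).

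The 3 higher genes of this list were all annotated as neutral invertases, the family of the gene that was higher at 3 h. NIN1 (LOC_Os03g20020) had 803, 747 and 1339 raw counts in csa against 514, 402 and 503 in wild type, with a log2 fold change of 1.06 ± 0.26 (SE). LOC_Os04g33490 had 266, 243 and 398 against 156, 93 and 173, with a log2 fold change of 1.15 ± 0.29. In both, csa replicate 3 was the highest library. LOC_Os02g03320 had 375, 325 and 187 against 175, 96 and 59, with 1.46 ± 0.56, and here csa replicate 3 was the lowest of its group, close to wild type replicate 1. The 4 neutral invertase genes were thus all listed as higher, 1 at 3 h and 3 at 6 h, and none of the 4 was listed at both times. Among all listed genes, 746 of 1050 were higher at 3 h and 1395 of 2388 at 6 h.

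**Figure D3:**
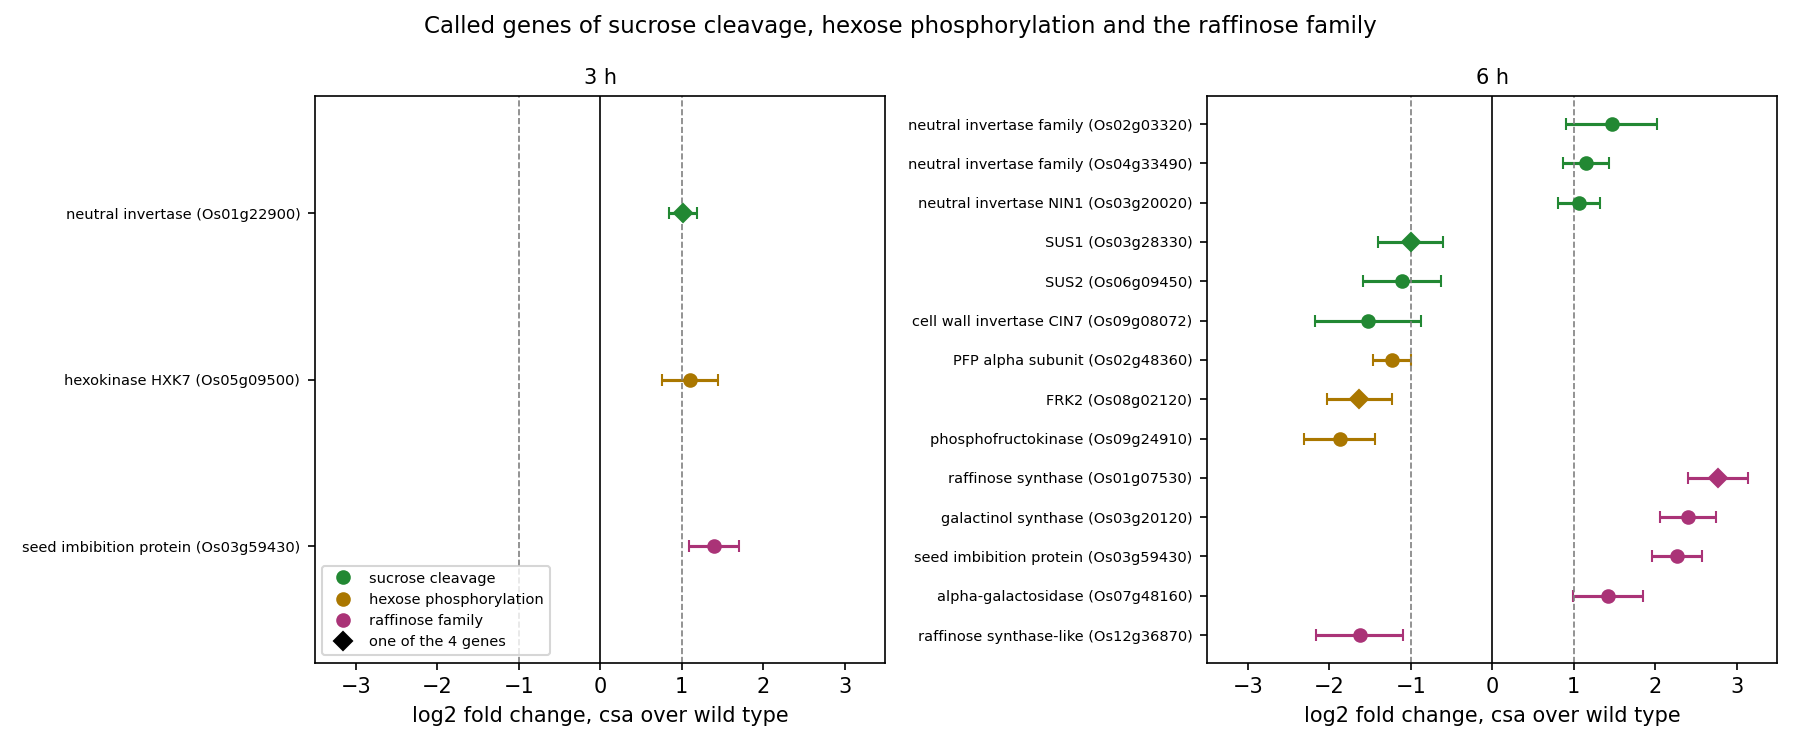
Log2 fold changes (csa over wild type, ± SE, n = 3 per genotype) of the called genes of sucrose cleavage, hexose phosphorylation and the raffinose family at 3 h and 6 h. Diamonds are the 4 genes described first, and dashed lines mark the fold limit of 1. At 6 h the neutral invertases lie to the right and the sucrose synthases and the cell wall invertase to the left. To the right also lie 4 of the 5 raffinose family genes, beside 1395 higher among all 2388 genes listed at 6 h.

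In hexose phosphorylation, HXK7 (LOC_Os05g09500), a hexokinase gene, was called higher at 3 h. The csa libraries held 230, 166 and 374 raw counts and the wild type libraries 119, 140 and 117, a log2 fold change of 1.10 ± 0.35 (SE). At 6 h, when 993 of all 2388 listed genes were lower, the 3 listed genes of this step were all lower. Beside FRK2 these were genes of the next step of glycolysis, caught because their annotation contains the word phosphofructokinase. The gene for the alpha subunit of the pyrophosphate-dependent enzyme (LOC_Os02g48360) had 80, 77 and 82 raw counts in csa against 150, 163 and 274 in wild type, with a log2 fold change of -1.23 ± 0.23 (SE). The other (LOC_Os09g24910) was scarcely detected, with 6, 7 and 3 raw counts against 14, 19 and 29.

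Of the 5 raffinose family genes listed at 6 h, 4 were higher, beside 1395 of all 2388 genes listed at that time. The galactinol synthase gene (LOC_Os03g20120), the step before raffinose synthase, had 5003, 4833 and 3657 raw counts in csa against 1170, 856 and 601 in wild type. All 3 csa libraries were above the wild type libraries, with a log2 fold change of 2.40 ± 0.35 (SE). An alpha-galactosidase gene (LOC_Os07g48160), of the breakdown side, stood at 1.42 ± 0.43, with 192, 169 and 127 raw counts against 66, 85 and 35. A UDP-glucose 4-epimerase gene (LOC_Os05g51670), whose product supplies UDP-galactose, was missed by the search terms through its spelling and was added after its values were seen. It had 4535, 4402 and 4246 raw counts in csa against 2118, 1414 and 1083 in wild type, a log2 fold change of 1.55 ± 0.32 (SE).

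A seed imbibition protein gene (LOC_Os03g59430) was the only gene of the 4 enzyme lists called at both 3 h and 6 h. Seed imbibition proteins resemble raffinose synthases in sequence, and some from other plants act as alkaline alpha-galactosidases. Raw counts were 338, 422 and 476 in csa against 174, 214 and 108 in wild type at 3 h, with a log2 fold change of 1.39 ± 0.31 (SE). At 6 h they were 222, 257 and 206 against 59, 29 and 61, with 2.27 ± 0.30. The 2 tables were scaled separately, and the difference between the times was not tested. The lower gene of the list, a second raffinose synthase-like gene (LOC_Os12g36870), had few reads, with raw counts of 4, 11 and 10 in csa against 17, 21 and 43 in wild type and a log2 fold change of -1.63 ± 0.53.

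**Figure D4:**
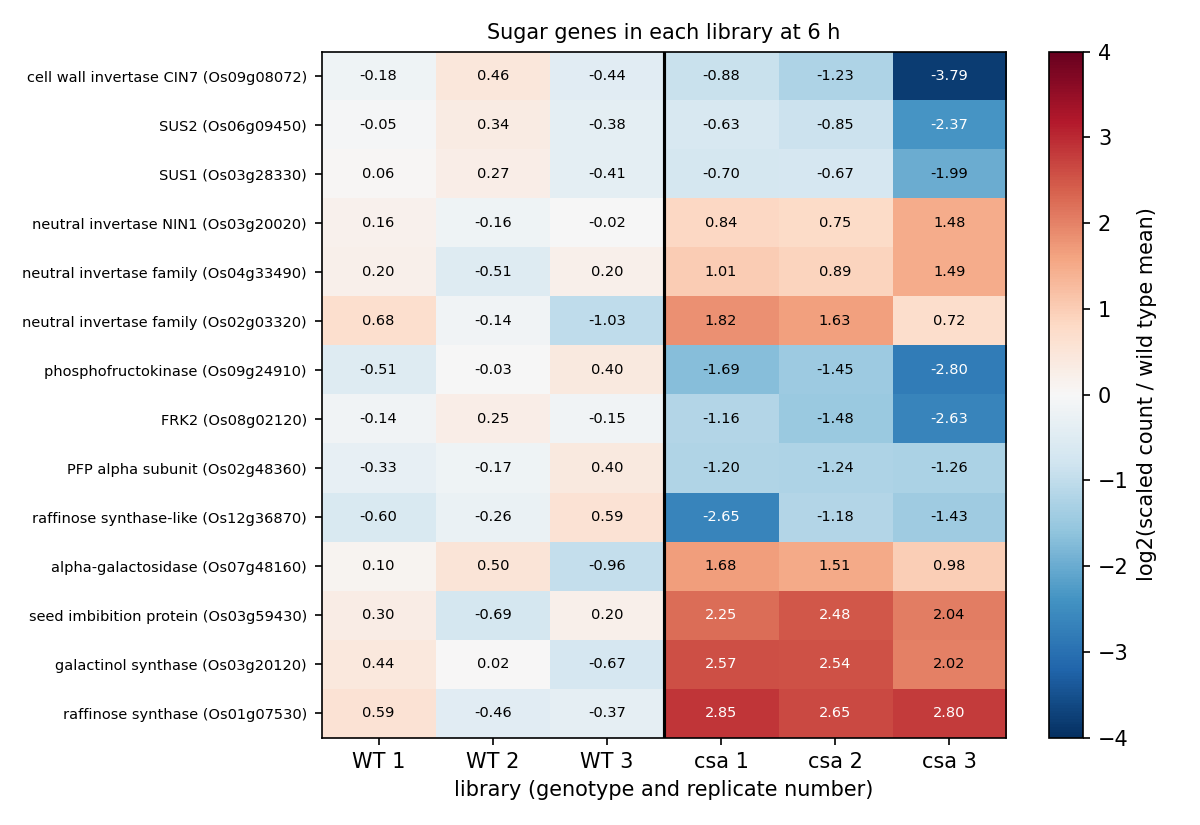
Log2 of the scaled count over the wild type mean for the 14 called genes of sucrose cleavage, hexose phosphorylation and the raffinose family in each library at 6 h, blue for lower and red for higher. In csa replicate 3, SUS1, SUS2, FRK2 and CIN7 are at their lowest (-1.99, -2.37, -2.63 and -3.79), while the raffinose synthase gene stands between 2.65 and 2.85 in all 3 csa libraries.

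Across these 14 genes csa replicate 3 was the lowest csa library for 6 of the 7 lower genes, and for 64.8% of all 993 lower genes. For the 7 higher genes it was the highest csa library for 2 and the lowest for 4, against 59.6% and 23.2% of all 1395 higher genes. In that library the raffinose synthase gene stood at 103% of the mean of the other csa libraries, and SUS1 and FRK2 at 40.5% and 40.1%.

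Around these enzymes, sugar carriers and a trehalose gene were listed. At 6 h, 4 of 5 called carrier genes were lower, beside 993 of the 2388 genes listed at that time: SWEET1B (LOC_Os05g35140) at -1.67 ± 0.48, MST3 (LOC_Os07g01560) at -1.53 ± 0.52, a hexose transporter gene (LOC_Os03g11900) at -1.06 ± 0.47 and a gene annotated as monosaccharide transporter 2 (LOC_Os03g39710) at -1.08 ± 0.46 (log2 fold changes, SE). A gene annotated as similar to monosaccharide transporter 3 (LOC_Os02g06540) was higher at both 3 h and 6 h, at 1.71 ± 0.36 and 1.71 ± 0.62, with raw counts of 50 or fewer. SWEET15 (LOC_Os02g30910) was the carrier listed at 12 h, lower in csa at -1.42 ± 0.36, with 588, 467 and 601 raw counts against 1831, 1916 and 858. The lowest wild type value is that of replicate 3, the sample with the conflicting label, and without it the log2 fold change was -1.70. A trehalose-6-phosphate phosphatase gene (LOC_Os08g31630), which makes trehalose, was higher at 6 h at 1.32 ± 0.44. A beta-phosphoglucomutase-like gene (LOC_Os06g01990) was lower at 6 h at -1.27 ± 0.52.

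Genes with the most similar profile were sought for each of the 4 among listed genes with a mean scaled count of at least 20, leaving out those with a blank annotation or one that reads hypothetical, uncharacterised, unknown function, expressed protein or non-protein coding. Annotations by a clone name or as a predicted protein passed this filter. Likeness was the root mean square difference over 6 libraries of log2(scaled count + 1), set to a wild type mean of 0. For SUS1 the nearest were a NEK2 kinase gene (LOC_Os12g41180, difference 0.0617), LOC_Os10g27310, annotated only by a clone name (0.0945), and an E2F homolog gene (LOC_Os12g06200, 0.0986), against a median of 1.64 over 1534 genes. For FRK2 they were a 50S ribosomal protein L6-like gene (LOC_Os03g54040, 0.117), a gene similar to the transcription factor ICE1 (LOC_Os01g50940, 0.136) and a RING-type zinc finger gene (LOC_Os02g50460, 0.144), against a median of 2.08. The L6-like gene had few reads, with raw counts of 14, 10 and 5 in csa against 25, 36 and 32 in wild type. Its closeness to FRK2 is therefore uncertain.

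For the raffinose synthase gene the nearest profiles were less close. A seed maturation protein domain gene (LOC_Os03g53620) differed by 0.171, an AN1-type zinc finger gene (LOC_Os03g57900) by 0.246 and AGO3 (LOC_Os04g52550) by 0.253, against a median of 1.32. The seed maturation gene had raw counts of 819, 962 and 949 in csa against 214, 99 and 96 in wild type, with the same high value in wild type replicate 1. For the neutral invertase gene, over 645 genes at 3 h, the nearest were LOC_Os07g28614, annotated as a predicted protein (0.115), a protein kinase-like gene (LOC_Os12g44320, 0.116) and LOC_Os04g33310, annotated only by a clone name (0.117), against a median of 0.58. Since all of these genes were called in the same contrast, a profile split by genotype is shared by construction.

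The genes lie apart in the genome. In the gene order of RefSeq (assembly ASM3414082v1, used only for names and order), the raffinose synthase gene is number 450 of 4056 protein-coding genes on chromosome 1 and the neutral invertase gene number 1285. SUS1 lies on chromosome 3 and FRK2 on chromosome 8. Before the raffinose synthase gene on chromosome 1 lie 449 genes, of which 14.5% were listed at 6 h, 26 higher and 39 lower, against 6.90% of the next 449 genes and 6.30% of all RefSeq protein-coding genes. At 12 h the shares were 3.56%, 0.223% and 0.245%. The split was made at the raffinose synthase gene itself, so it does not show where the share changes. Of its 20 nearest genes on each side, 4 of 40 were listed at 6 h, 3 higher and 1 lower. For FRK2, itself lower, it was also 4 of 40, all 4 higher, beside 1395 higher among all 2388 genes listed at 6 h. For SUS1 it was 3 of 40. For the neutral invertase gene it was 1 of 40 at 3 h, when 2.75% of all RefSeq protein-coding genes were listed.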

How the data were processed

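Total RNA libraries of germinating rice were grouped by title, 3 per genotype and time, and 0 sample columns were left unmatched. The authors deposited 1 table per time with raw read counts per gene and library, together with their log2 fold change, p-value and FDR, per the file headers, for called genes only (absolute log2 fold change of at least 1, FDR of at most 0.05). The submitters' processing notes name DESeq2 and no version. The aligner, counter, strand setting and build were not given in the sources used here. Library totals were not used here: depth is unknown, and only the replicates show the precision.

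The 4 genes, the lists and their search terms were chosen with earlier results of these data known. Library factors (0.919 to 1.10) were fitted so that group means of scaled counts return the authors' log2 fold changes, with residual SDs (log2) of 0.0040 at 3 h, 0.0094 at 6 h and 0.0134 at 12 h. How many genes were tested was estimated as the number that makes rank (p-value times that number over FDR) whole, within 0.02, for the largest share of entries with p-values above 1e-04: 0.771 at 3 h, 0.779 at 6 h and 0.545 at 12 h. Standard errors follow from the replicate SDs. Named genes were the 4 genes, all called genes of the sucrose cleavage, sucrose synthesis, hexose phosphorylation and raffinose family lists, up to 4 of each other list per time, and the 3 nearest profiles per gene. LOC_Os02g06540, a carrier gene named by this rule at 3 h, is also given at 6 h, and LOC_Os05g51670 was added after its values were seen. Refits of the listed genes used edgeR 4.0.16 and DESeq2 1.42.0 in R 4.3.3 and served only as alternatives. The edgeR code was also run on simulated data in which most genes were unchanged. The listed genes had all been called, so that run does not show how the refit behaves on them. A gene was kept in a refit when its p did not exceed the largest deposited p of that time and its log2 fold change still reached 1 in the same direction.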

Additional observations from a re-analysis of the deposited data

How the results depend on the processing

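SUS1, FRK2 and the raffinose synthase gene kept their direction under every setting tried, and the neutral invertase gene under all but a pair of scalings. Factors computed from the listed genes alone, which set the typical listed gene to no change, shifted all 3 h values by -1.24 (edgeR TMM) and -1.03 (DESeq2) at the median. They gave the neutral invertase gene -0.20 and -0.0042. At 6 h they shifted the median by -0.59 and -0.74 and moved the raffinose synthase gene to 2.07 with DESeq2 factors.

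An edgeR refit with all libraries kept 3 sugar list genes higher at 3 h, and 7 higher and 5 lower (of 7) at 6 h. With single libraries left out of that refit, the counts ran from 1 to 3, from 4 to 7 and from 4 to 5. Such fits also have fewer libraries than the authors' calls, and the part of this in the losses was not tested. The lowest counts came without wild type replicate 1 or 3 at 3 h and, for higher genes at 6 h, without wild type replicate 2; for lower genes at 6 h they came without csa replicate 3 or any 1 wild type library. At an absolute log2 fold change of at least 1.5, 0 genes remained at 3 h, and 3 higher and 4 lower at 6 h. The share of all listed genes kept under the same settings is not given here. These counts, and those with the replicate block below, therefore do not set sugar genes apart from other listed genes. With csa replicate 3 and wild type replicate 2 both left out, a setting chosen after seeing the data, SUS1 stood at -0.53, FRK2 at -1.16 and the raffinose synthase gene at 2.57.

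The edgeR refit did not keep SUS1 with all 6 libraries, nor in any of the 6 cases with 1 left out. Whether same-numbered libraries were paired was not settled. Their deviations correlated across genes at -0.025, 0.289 and 0.306 at 3 h and at -0.213, 0.334 and 0.206 at 6 h. Those of different-numbered libraries ran from -0.369 to 0.134 at 3 h and from -0.429 to 0.327 at 6 h. The values 0.289 and 0.306 at 3 h and 0.334 at 6 h lay above these ranges, and the other same-numbered values lay within them. With the replicate block the edgeR log2 fold changes were 0.99, -1.09, -1.74 and 2.85 for the neutral invertase gene, SUS1, FRK2 and the raffinose synthase gene, and 2, 7 and 7 list genes were kept. Among the 4 genes the block changed a pair of calls: SUS1 was kept with it (edgeR quasi-likelihood p of 0.00855, against 0.0273 without it), and the neutral invertase gene, just under the fold limit of 1, was not. No gene was listed at 2 times among the 4, so no difference between times was computed.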
